A study of Mus musculus with 4 samples.

Results

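The genes described here are the xenobiotic metabolism enzyme genes of mouse lung tumours: cytochrome P450 enzymes (Cyp), glutathione transferases (Gst), UDP-glucuronosyltransferases (Ugt), sulfotransferases (Sult), flavin-containing monooxygenases (Fmo) and aldehyde oxidases (Aox). Members were chosen by symbol and by abundance. Of 32289 genes in the count tables, 163 had a matching symbol, and the 82 of these with at least 50 unique molecular identifiers (UMIs, each a tagged transcript molecule) over the 4 libraries were kept. By matching symbol they comprised 31 of 75 genes of P450 families 1 to 4, 8 of 18 of other P450 families and all 20 of Gst. The rest were 6 of 18 of Ugt, 9 of 21 of Sult, 4 of 7 of Fmo and all 4 of Aox. These are counts of matching symbols, not of whole families. Symbols ending in a letter, such as Ugt1a6a, did not match, nor did Gst genes of other classes, such as Gstk1 and Gstz1. Abundance chose the members, so the totals are a description only. Cyp2j9 with 52 UMIs and Ugt2b5 with 54 lay just inside the threshold, and Cyp2j13 with 48 and Cyp4f14 with 46 lay just outside. A further 17 matching genes had no UMI at all.

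Enzymes of phase 1 (P450s, Fmo and Aox proteins) oxidise drugs, toxicants, steroids and fatty acids, and enzymes of phase 2 (Gst, Ugt and Sult proteins) attach glutathione, glucuronic acid or sulfate to the products so that they can be excreted. Liver and intestine are the main sites, and in the lung, club cells, alveolar cells and endothelium carry their own sets, among them Cyp2f2 and Cyp4b1. The same families also handle endogenous compounds such as retinoids, oxysterols, arachidonic acid and lipid peroxides.

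The 4 libraries were droplet-based single-cell RNA-seq libraries with 3′ chemistry from lung tumours of KPH mice. Sample titles call the vehicle libraries KP and the tamoxifen libraries KPH, while the genotype label is the same for all. By that label all groups, vehicle included, carried the alleles KrasFSF-G12D, p53frt, Rosa-FSF-CreERT2 and Hnf4aflox, and tumours were started by an adenovirus with FlpO recombinase driven by the mSPC (surfactant protein C) promoter. Mice received vehicle or tamoxifen, which activates CreERT2 and was meant to delete Hnf4a, 10 weeks later, and cells were collected after another 2 weeks. Each treatment was sequenced once before and once after magnetic-bead removal of CD45-positive (immune) and CD31-positive (endothelial) cells, all sorted as live cells after freezing. Both portions came from dissociated macroscopic tumours; ages and the number of animals behind each suspension are not given in the sources used here, and the portions of a suspension do not replicate each other. With 1 library per group no test of treatment was possible. Differences are therefore given by a rule of size, and all intervals (95%) cover counting error only.

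After filtering, 6111 to 7358 cells per library remained, with median depths of 9302 to 17733 UMIs per cell, and any pair of libraries shared 9 to 17 cell barcodes. Epithelial-like cells numbered 986 (vehicle) and 1058 (tamoxifen) before depletion and 6304 and 6915 after it, with 30594014, 34167817, 131860179 and 130014294 UMIs. The labels do not separate tumour from normal epithelium. Levels are given as CPM, counts per 1000000 UMIs, with UMIs summed over the cells of a class and library. Hnf4a itself, the targeted gene, gave 53.9 and 86.9 CPM (vehicle and tamoxifen) in epithelial-like cells before depletion and 53.5 and 82.9 CPM after it, higher in both libraries labelled tamoxifen. A 3′ tag does not show which exons a transcript holds, so this level checks nothing about deletion, and treatment below means the label.

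In epithelial-like cells the 82 genes together took 1710 CPM (vehicle) and 1820 CPM (tamoxifen) before depletion and 1839 and 1936 CPM after it. Of this sum, Gst genes held 1067, 1121, 1253 and 1243 CPM in the same order. Aox genes held 244, 234, 211 and 234 CPM. The sum was thus close between treatments, and Gst genes made up most of it. The Fmo sum differed, at 103 and 91.4 CPM with vehicle, against 189 and 186 CPM with tamoxifen. Most of it was Fmo2, at 69.3 and 60.7 CPM with vehicle, against 159.7 and 159.9 CPM with tamoxifen. Of the others, Fmo4 was higher with tamoxifen, Fmo1 lower and Fmo5 little changed. The 6 Ugt members were near the floor, with sums of 5.92 and 5.09 CPM with vehicle, against 0.702 and 0.831 CPM with tamoxifen. Ugt2b34 gave most of the vehicle sums, at 3.66 and 3.69 CPM. Ugt1a5 shares all of its compared 3′ end with other Ugt1a genes, so the level of that locus is uncertain. The sum therefore does not describe all glucuronidation genes.

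Among phase 2 genes, Gstm1, a mu-class transferase with broad substrate range, gave 402 CPM (vehicle) and 345 CPM (tamoxifen) before depletion and 446 and 373 CPM after it. Gsta4, which conjugates the lipid peroxidation product 4-hydroxynonenal, gave 134, 165, 201 and 204 CPM in that order. Gsta3, an alpha-class transferase, gave 41.1, 76.1, 49.3 and 87.3 CPM. Both tamoxifen values of Gsta3 lay above both vehicle values, with log2 ratios of 0.87 and 0.81 that stayed under the 2-fold rule. The theta-class gene Gstt1 gave 106, 131, 132 and 146 CPM, and Gsto1, an omega-class thiol transferase, 81.9, 79.9, 113 and 89.4 CPM. Sult2b1, which sulfates cholesterol, gave 39.98 and 48.5 CPM with vehicle, against 33.7 and 31.8 CPM with tamoxifen. Sult6b1 stayed at 0.673 to 1.11 CPM, and Sult1a1, a phenol sulfotransferase, at 3.63 to 4.90 CPM.

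Among phase 1 genes outside the P450s, the aldehyde oxidase gene Aox3 gave 191 and 161 CPM with vehicle, against 163 and 166 CPM with tamoxifen. Its neighbour Aox1 gave 44.6 and 35.1 CPM with vehicle, against 66.9 and 58.9 CPM with tamoxifen. Aox4 was lower with tamoxifen, at 3.66 and 8.23 CPM against 8.79 and 14.3 CPM, but missed the minimum level before depletion. Within the Aox family the tamoxifen libraries were thus above the vehicle libraries for Aox1, below them for Aox4 and overlapping for Aox3. Among P450 genes, the fatty acid hydroxylase gene Cyp4v3 gave 30.3 and 22.4 CPM with vehicle, against 36.4 and 33.1 CPM with tamoxifen. The orphan P450 gene Cyp20a1 gave 23.5 to 29.2 CPM, and Cyp39a1, an oxysterol hydroxylase, 21.1 to 25.2 CPM.

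Epithelial-like cells fell into 12 clusters, made with the 82 genes left out of the clustering and named here by their leading genes. The Rtkn2/Akap5 cluster (1016 cells), with 4 alveolar type 1 markers among its 10 leading genes, is called alveolar type 1-like, and the Ube2c/Birc5 cluster (582 cells), with 6 cycling markers there, cycling-like. The other clusters had at most 1 marker of their best-scoring state among their 10 leading genes and are left without a cell name, a choice made after seeing those genes. A gene was said to mark a cluster when it lay at least 2-fold above the mean of the other clusters, at 10 CPM or more, in every library with at least 50 cells of that cluster. By this description 21 of the 82 genes marked 1 cluster or more, and all clusters but Scgb1a1/Cbr2 and Ube2c/Birc5 had such a gene. The clusters were made from the same cells, so this is no test. The share of all genes that mark a cluster is not given here, so the count only describes the 82 genes.

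**Figure D1:**
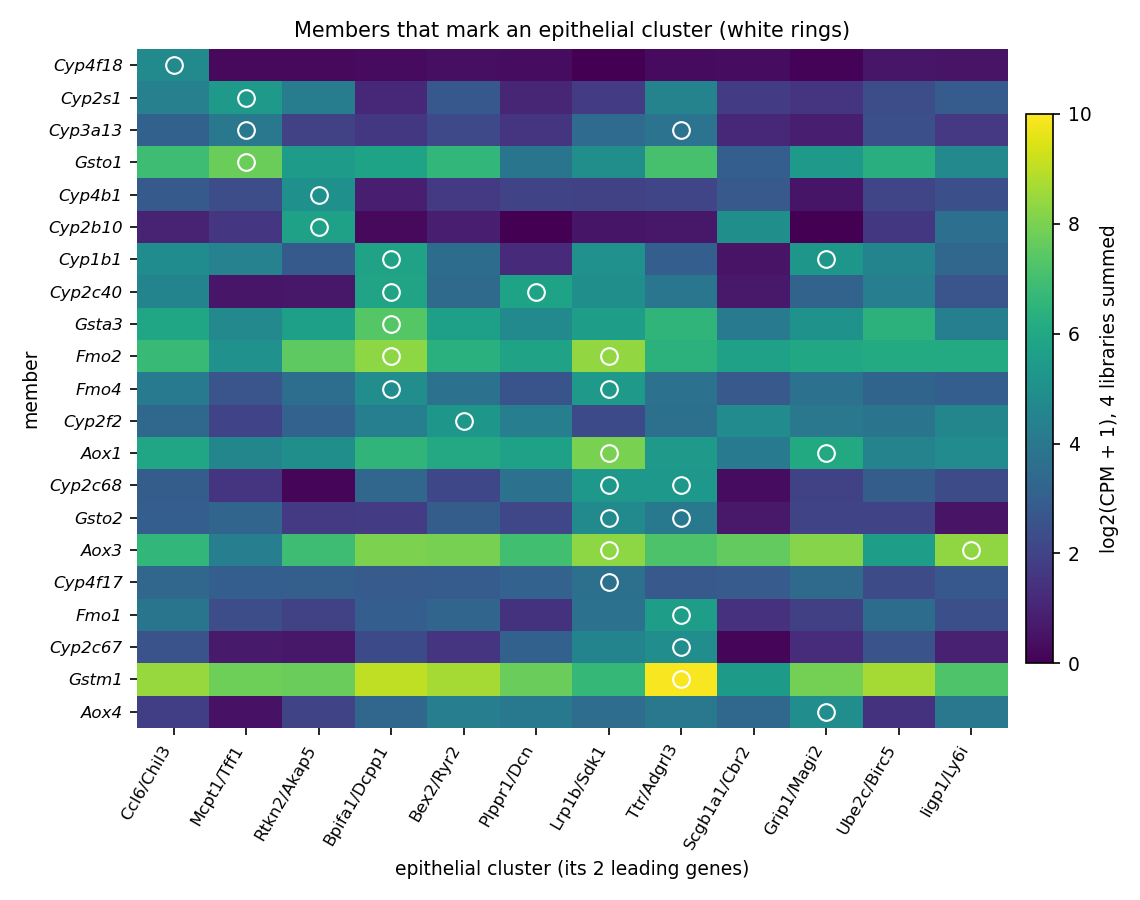
Levels of the 21 genes that mark an epithelial cluster (vertical axis) in the 12 epithelial clusters (horizontal axis, each named by its 2 leading genes), as log2(CPM + 1) of UMIs summed over the 4 libraries. White rings show the cluster a gene marks: the Bpifa1/Dcpp1, Ttr/Adgrl3 and Lrp1b/Sdk1 columns carry the most rings, and the Scgb1a1/Cbr2 and Ube2c/Birc5 columns carry none.

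The Bpifa1/Dcpp1 cluster (2195 cells) was marked by Cyp1b1, Cyp2c40, Gsta3, Fmo2 and Fmo4. It made up 1.22% and 2.0% of epithelial-like cells in the vehicle libraries and 23.5% and 26.1% in the tamoxifen libraries. Cyp1b1, which hydroxylates polycyclic aromatic hydrocarbons and oestrogens, stood there at 58.1 CPM (tamoxifen before depletion), 36.6 CPM (vehicle after) and 53.2 CPM (tamoxifen after), against means of 10.8 to 14.8 CPM over the other clusters. Fmo2, the lung form of the flavin-containing monooxygenases, stood at 323, 125 and 322 CPM in these libraries, against 55.8 to 124 CPM. Within each library Fmo2 was at least 2.24-fold and Cyp1b1 at least 3.38-fold above that mean.

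The Ttr/Adgrl3 cluster (1491 cells, with Agr2 also among its leading genes) had the opposite distribution, with 12.2% and 19.4% of epithelial-like cells in the vehicle libraries and 1.51% and 1.94% in the tamoxifen libraries. Fmo1, the monooxygenase of liver and kidney in many mammals, marked it at 54.7 CPM (vehicle before depletion), 46.8 CPM (vehicle after) and 28.4 CPM (tamoxifen after), against 4.34 to 7.68 CPM over the other clusters. Cyp2c67 followed at 35.6, 29.5 and 16.6 CPM against 2.60 to 2.82 CPM, and Cyp2c68 at 50.3, 40.7 and 15.2 CPM against 4.23 to 6.24 CPM. Gstm1 stood at 904, 996 and 762 CPM against 246 to 265 CPM. Gsto2 and Cyp3a13 also marked the cluster. Its sum over all 82 genes, 2741 CPM over the pooled libraries, was the highest of the 12 clusters, followed by the Bpifa1/Dcpp1 cluster with 2657 CPM; the Scgb1a1/Cbr2 cluster was lowest with 1026 CPM.

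The Rtkn2/Akap5 cluster was marked by Cyp4b1, a lung P450 that activates furans, and by Cyp2b10, known in liver as a barbiturate-induced gene. Cyp4b1 gave 97.7 and 29.4 CPM with vehicle, against 27.6 and 24.4 CPM with tamoxifen, against 2.70 to 3.83 CPM over the other clusters. Cyp2b10 gave 237 and 44.5 CPM with vehicle, against 54.6 and 27.6 CPM with tamoxifen, against 3.68 to 8.03 CPM. For both genes the vehicle library before depletion, with 52 cells of this cluster, stood apart from the other 3.

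The Mcpt1/Tff1 cluster (2558 cells) was marked by Cyp2s1, a P450 of epithelia outside the liver, by Cyp3a13 and by Gsto1. Cyp2s1 gave 64.7 and 53.2 CPM there with vehicle and 25.3 and 21.5 CPM with tamoxifen, against 5.30 to 10.9 CPM over the other clusters. Gsto1 gave 177 to 231 CPM there against 50.7 to 91.9 CPM. Cyp2f2, the naphthalene-activating P450 of club cells, marked the Bex2/Ryr2 cluster (2721 cells) at 34.5 to 48.4 CPM against 9.49 to 15.9 CPM. The Scgb1a1/Cbr2 cluster, whose leading genes include both the club cell gene Scgb1a1 and the alveolar type 2 gene Lyz1, was marked by none of the 82. It still held Cyp2f2 at 27.0 CPM over the pooled libraries, beside 38.7 CPM in Bex2/Ryr2. Pooled Cyp2b10 stood there at 30.8 CPM, beside 51.2 CPM in Rtkn2/Akap5.

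Of the smaller clusters, Plppr1/Dcn (404 cells) was marked by Cyp2c40 at 56.8 and 54.1 CPM in the tamoxifen libraries. Grip1/Magi2 (442 cells, all but 8 of them in the vehicle libraries) was marked by Cyp1b1 at 42.6 and 37.4 CPM, by Aox4 at 32.3 and 26.9 CPM and by Aox1 at 87.2 and 62.8 CPM. High Cyp1b1 was therefore present in a cluster of each treatment. Iigp1/Ly6i (127 cells) was marked by Aox3 at 342 CPM in the tamoxifen library after depletion. Lrp1b/Sdk1 (274 cells) was marked by 7 genes in that same library, led by Aox1 at 264 CPM against 42.1 CPM. This cluster had a median of 6556 UMIs per cell, under that of any other epithelial cluster. Cyp4f18 marked only the Ccl6/Chil3 cluster (115 cells, 114 of them before depletion), whose leading genes are immune transcripts and which held 114 CPM of the leukocyte gene Ptprc.

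Between treatments, 6 of the 82 genes were at least 2-fold apart the same way in epithelial-like cells both before and after depletion. Fmo2, Cyp1b1 and Cyp2c40 were higher and Cyp2s1, Fmo1 and Cyp2c68 lower in the tamoxifen libraries. To be considered, a gene needed 10 CPM in either library of each pair, which 28 of the 82 reached. Of the 28, 3 were higher, where 0.411% of all 9013 genes considered were, and 3 were lower, where 0.965% were; 1.38% of all genes were apart in either direction. The members' median log2 ratios were 0.16 and 0.10 before and after depletion, against -0.03 and 0.01 over all genes considered. Cyp2c40, Cyp2s1, Fmo1 and Cyp2c68 reached 10 CPM only in the treatment in which they were higher, and Cyp1b1 did so after depletion.

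**Figure D2:**
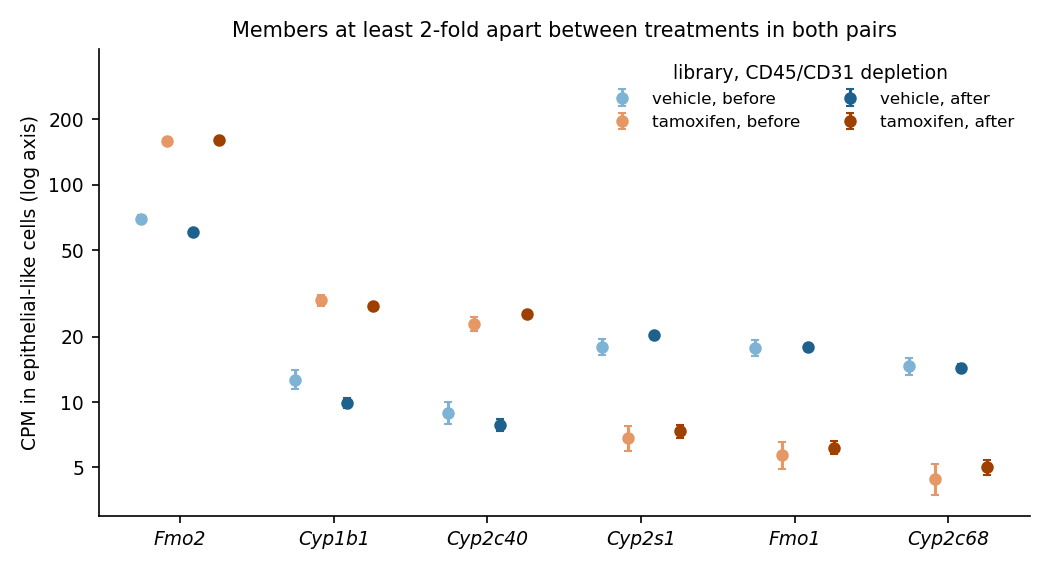
CPM in epithelial-like cells (log axis) of the 6 genes at least 2-fold apart between treatments in both pairs, 1 point per library, with bars for the 95% Poisson interval of the count. For Fmo2, Cyp1b1 and Cyp2c40 both tamoxifen points lie above both vehicle points, and for Cyp2s1, Fmo1 and Cyp2c68 both lie below.

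Fmo2 gave 69.3 CPM (vehicle) and 159.7 CPM (tamoxifen) before depletion and 60.7 and 159.9 CPM after it, from 2120, 5457, 8010 and 20786 UMIs. The ratio was 2.30-fold (interval 2.19 to 2.42) before and 2.63-fold (2.56 to 2.70) after depletion. Cyp1b1 gave 12.6 and 29.4 CPM before and 9.88 and 27.7 CPM after depletion, 2.32-fold (2.06 to 2.62) and 2.80-fold (2.63 to 2.98) higher with tamoxifen. Cyp2c40, whose enzyme metabolises arachidonic acid, gave 8.92 and 22.9 CPM before and 7.85 and 25.5 CPM after depletion. Its ratios were 2.56-fold (2.23 to 2.95) and 3.25-fold (3.03 to 3.48). For these 3 genes the portions of 1 treatment lay close together. The treatments did not overlap, which the rule that chose the genes largely fixes.

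Cyp2s1 gave 17.9 CPM (vehicle) and 6.82 CPM (tamoxifen) before depletion and 20.3 and 7.32 CPM after it, 2.63-fold and 2.77-fold lower with tamoxifen. Fmo1 gave 17.7 and 5.68 CPM before and 17.9 and 6.18 CPM after depletion, 3.11-fold and 2.89-fold lower. Cyp2c68, a close paralog of Cyp2c40, gave 14.6 and 4.42 CPM before and 14.3 and 5.01 CPM after depletion, 3.30-fold and 2.86-fold lower. The Fmo and Cyp2c families thus each had members on both sides.

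The call for all 6 genes depends on how the epithelial clusters enter it. In the tamoxifen libraries the Bpifa1/Dcpp1 cluster gave 61.1% and 63.7% of the epithelial UMIs of Fmo2, 59.7% and 60.8% of those of Cyp1b1 and 57.5% and 75.1% of those of Cyp2c40, beside 30.2% and 31.6% of all epithelial UMIs. In the vehicle libraries the Ttr/Adgrl3 cluster gave 65.1% and 76.0% of the UMIs of Fmo1 and 72.6% and 82.2% of those of Cyp2c68, beside 21% and 29% of all. With both clusters left out, an alternative chosen after seeing the data, 0 genes were higher and 0 lower, though the ratio of none of the 6 genes changed sign in either pair. The log2 ratios before and after depletion were then 1.28 and 0.97 for Cyp2c40, -1.11 and -0.97 for Cyp2s1 and 0.63 and 0.76 for Fmo2. Those of Cyp1b1 (0.17 and 0.50), Fmo1 (-0.88 and -0.45) and Cyp2c68 (-0.68 and -0.41) were smaller still. With equal weight for each cluster that held 100 cells or more in both libraries the counts were also 0 and 0, and before depletion Fmo2 (-0.19) and Cyp2c40 (-0.55) turned. A different makeup of the epithelial cells and the treatment label cannot be told apart with 1 library per group.

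The share of cells with a UMI moved the same way as the CPM for Fmo2, Fmo1 and Cyp1b1. Cells were thinned to 2000 UMIs, a depth that 966 of 986 and 6235 of 6304 epithelial-like cells reached with vehicle and 1051 of 1058 and 6874 of 6915 with tamoxifen. Fmo2 was seen in 8.70% and 9.05% of epithelial-like cells with vehicle and in 18.3% and 20.2% with tamoxifen; unthinned, the shares were 39.9%, 36.4%, 53.3% and 50.1%. In T cell-like cells before depletion, which should lack the gene, 0 of 1124 thinned cells and 0.299% had an Fmo2 UMI. Median depths were 5806 and 6004 UMIs. The 0 allows up to 0.267% at a floor of 3 counts, a bound that is not a Clopper-Pearson limit. Fmo1 was seen in 1.76% and 2.69% of thinned epithelial-like cells with vehicle and in 0.761% and 0.931% with tamoxifen. Cyp1b1 was seen in 1.66% and 1.51% with vehicle and in 4.66% and 4.25% with tamoxifen.

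**Figure D3:**
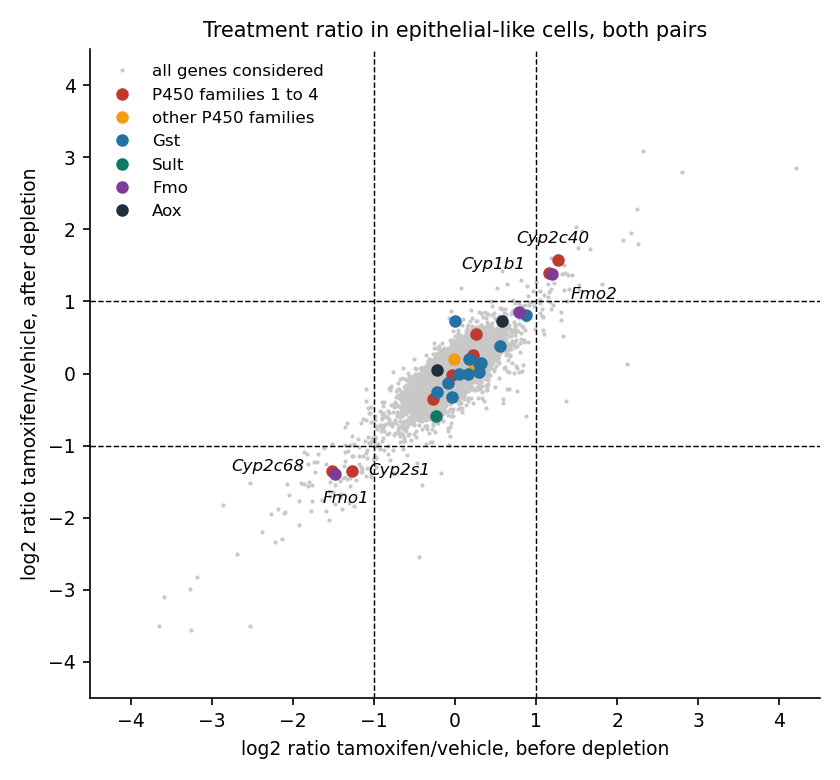
Log2 ratio of tamoxifen over vehicle in epithelial-like cells before (horizontal) and after depletion (vertical), each as log2 of CPM plus a pseudocount of 1. Grey points are the 9013 genes considered and coloured points the 28 members by family, with dashed lines at 2-fold: the 6 named genes lie beyond the lines in both pairs and the other 22 do not.

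Of the other 22 considered genes, Fmo4 came nearest to the rule with Gsta3. Fmo4 gave 10.4 and 8.48 CPM with vehicle, against 18.7 and 16.1 CPM with tamoxifen, and at a 1.5-fold rule both genes were apart. Cyp2c67 was 2-fold apart after depletion, at 10.1 CPM (vehicle) and 2.69 CPM (tamoxifen), and gave 9.68 and 2.02 CPM before it, just under the minimum. In the pair before depletion alone 3 of 29 genes were higher (0.619% of all genes) and 3 lower (1.32%). In the pair after it 3 of 30 were higher (0.57%) and 4 lower (1.29%). Between the portions of 1 treatment none of 30 genes (vehicle; 0.692% of all genes) and none of 24 (tamoxifen; 0.569%) was 2-fold apart.

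Of the 54 members too low for the rule, 35 (64.8%) had a ratio below 1 in both pairs and 7 (13.0%) above. Over all 10738 genes with at least 50 UMIs that were too low, the shares were 37.5% and 27.1%. Among these 54, 7 of 8 Sult genes, 5 of 6 Ugt genes, 6 of 8 Gst genes and 13 of 23 genes of P450 families 1 to 4 were below 1 in both pairs. Many of these ratios rest on few UMIs. Ugt2b34 gave 3.66 and 3.69 CPM with vehicle, against 0.205 and 0.454 CPM with tamoxifen, from 112 and 486 against 7 and 59 UMIs. Cyp2c65 gave 31 UMIs with vehicle and 0 with tamoxifen before depletion, at least 11.5-fold lower against a floor of 3 counts. Sult5a1 gave 22 and 0 UMIs there, at least 8.19-fold lower. The other named Ugt genes stayed under 1 CPM, with Ugt2a3 at 0.0878 to 0.458 CPM, Ugt2b35 at 0.0585 to 0.686 CPM and Ugt2b36 at 0.0231 to 0.490 CPM. Fmo5 gave 5.49 and 4.36 CPM with vehicle, against 4.77 and 4.25 CPM with tamoxifen.

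Many members are neighbours: 53 of the 82 lay in 13 gene clusters (members of 1 family within 1000000 bp, GRCm38 coordinates) and 29 lay alone. The Cyp2c members on chromosome 19 (39007019 to 40187333) run in the order Cyp2c55, Cyp2c65, Cyp2c67, Cyp2c68, Cyp2c40, Cyp2c69 and Cyp2c70. Cyp2c40 and Cyp2c69 were above 1 in both pairs, and Cyp2c65, Cyp2c67, Cyp2c68 and Cyp2c70 below. The adjacent genes Cyp2c68 and Cyp2c40 were thus apart in opposite directions. The 3 Fmo members on chromosome 1 (162793188 to 162898726) split likewise, with Fmo4 and Fmo2 above and Fmo1 below. All 5 Ugt2 members on chromosome 5 and all 5 Cyp4f members on chromosome 17 were below 1 in both pairs, as were 38.2% of all genes with at least 50 UMIs. The ratios of Cyp4f16 (log2 -0.04 and -0.02) and Cyp4f17 (-0.06 and -0.01) were near no change.

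The promoters of the Cyp2c members that differ in direction are shown because they are nearly the same sequence. Each line gives the 250 bases upstream of the gene's start from RefSeq (GRCm38.p6), 5′ to 3′ on the gene's strand, with capitals for CAAAGTCCA, a site type bound by HNF4 proteins, or for CACGC, the reverse complement of GCGTG, the core bound by the Ahr and Arnt pair. Cyp2c40 lies at chr19:39812815-39813064, Cyp2c68 at chr19:39741102-39741351 and Cyp2c67 at chr19:39649043-39649292. Cyp1b1, shown as an Ahr target among the 6 genes, lies at chr17:79715062-79715311, and all are on the minus strand. The windows of Fmo2 and Cyp2s1, not printed, held neither sequence.
Cyp2c40: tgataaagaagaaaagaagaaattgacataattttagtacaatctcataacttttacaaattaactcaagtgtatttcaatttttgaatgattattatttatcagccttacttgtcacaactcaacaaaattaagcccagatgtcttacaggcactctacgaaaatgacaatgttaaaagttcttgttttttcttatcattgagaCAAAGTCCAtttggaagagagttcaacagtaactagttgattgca
Cyp2c68: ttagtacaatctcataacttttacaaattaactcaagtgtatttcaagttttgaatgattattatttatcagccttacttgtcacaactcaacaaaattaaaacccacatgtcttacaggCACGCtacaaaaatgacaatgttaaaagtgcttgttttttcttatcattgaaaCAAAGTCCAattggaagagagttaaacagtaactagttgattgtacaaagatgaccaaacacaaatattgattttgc
Cyp2c67: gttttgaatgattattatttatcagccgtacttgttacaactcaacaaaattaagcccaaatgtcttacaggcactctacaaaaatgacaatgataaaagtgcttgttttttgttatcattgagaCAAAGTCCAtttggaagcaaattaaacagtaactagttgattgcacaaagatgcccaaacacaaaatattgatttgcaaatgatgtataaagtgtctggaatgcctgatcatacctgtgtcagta
Cyp1b1: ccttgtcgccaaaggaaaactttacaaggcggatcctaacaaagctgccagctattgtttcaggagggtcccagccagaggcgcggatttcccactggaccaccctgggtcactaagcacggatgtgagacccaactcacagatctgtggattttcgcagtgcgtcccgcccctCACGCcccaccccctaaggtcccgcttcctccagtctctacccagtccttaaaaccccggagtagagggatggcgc
The CAAAGTCCA match begins 45 bases upstream of the start in Cyp2c40, 77 in Cyp2c68 and 125 in Cyp2c67, always on the gene's own strand. These distances depend on the RefSeq start used. For Cyp2c68 the GENCODE gene begins at 39741054 on the minus strand, away from the window shown. Of the 250 bases, 217 aligned between Cyp2c68 and Cyp2c40 and 170 between Cyp2c67 and Cyp2c40. The aligned bases were 95.4% and 92.9% identical in that order. Cyp2c40 and Cyp2c68, which were apart in opposite directions, both held CAAAGTCCA, and of the pair only Cyp2c68 held CACGC.

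Over all promoters in the table, 71 of the 82 genes matched an entry, with 82 upstream windows. CAAAGTCCA, searched on both strands, was in 6 of these windows (7.32%), those of Cyp2c40, Cyp2c65, Cyp2c67, Cyp2c68, Cyp2c69 and Cyp2c70, and in 126 of 32851 windows of all genes (0.384%). All 6 are copies in 1 gene array. GCGTG was in 19 member windows (23.2%), Cyp1b1 included, and in 28.2% of all. TGACNNNGC, the core of the antioxidant response element bound by Nfe2l2, was in 4 member windows (4.88%; Cyp4f18, Gsta3, Gstm5 and Gstm7) and in 10.2% of all. Neither of the last pair was more frequent in member windows than in all windows, and a match describes letters, not binding.

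Near-identical copies limit some counts, since the treatment of reads that match several genes is not given in the sources used here. Of 411 stretches of 90 bases in the last 500 bases of the transcript, Cyp2c40 shared 49.9% with Cyp2c67, Cyp2c68 or Cyp2c69, and Cyp2c68 shared 28.0% and Cyp2c67 23.1% with such copies. Their levels are therefore uncertain. The same holds for Gstp1 (68.1%), Gstp2 (78.1%), Gsta1 (77.9%) and Ugt1a5 (100%), and 72 of the 82 genes shared none.

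Within epithelial clusters with at least 100 cells in both libraries, treatments were compared in 3 clusters before and 7 after depletion. Cyp1b1 was above 1 with tamoxifen in all 10 of these comparisons. It was 2-fold apart after depletion in 3 clusters: Mcpt1/Tff1 (12.9 and 28.8 CPM for vehicle and tamoxifen), Ttr/Adgrl3 (5.84 and 19.7 CPM) and Ube2c/Birc5 (9.35 and 28.2 CPM). Fmo2 was also apart in 3, namely Rtkn2/Akap5 (58.1 and 284 CPM), Bpifa1/Dcpp1 (125 and 322 CPM) and Ube2c/Birc5 (42.2 and 95.6 CPM). In the other 4 clusters after depletion the log2 ratios of Fmo2 were -0.22 to 0.39. Before depletion Fmo2 was apart in none of the 3 clusters, with log2 ratios of 0.19 in Bex2/Ryr2, 0.15 in Scgb1a1/Cbr2 and -0.90 in Mcpt1/Tff1 (42.5 and 22.3 CPM). Cyp2s1 was lower in Mcpt1/Tff1 in both pairs, at 64.7 and 25.3 CPM before and 53.2 and 21.5 CPM after depletion.

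**Figure D4:**
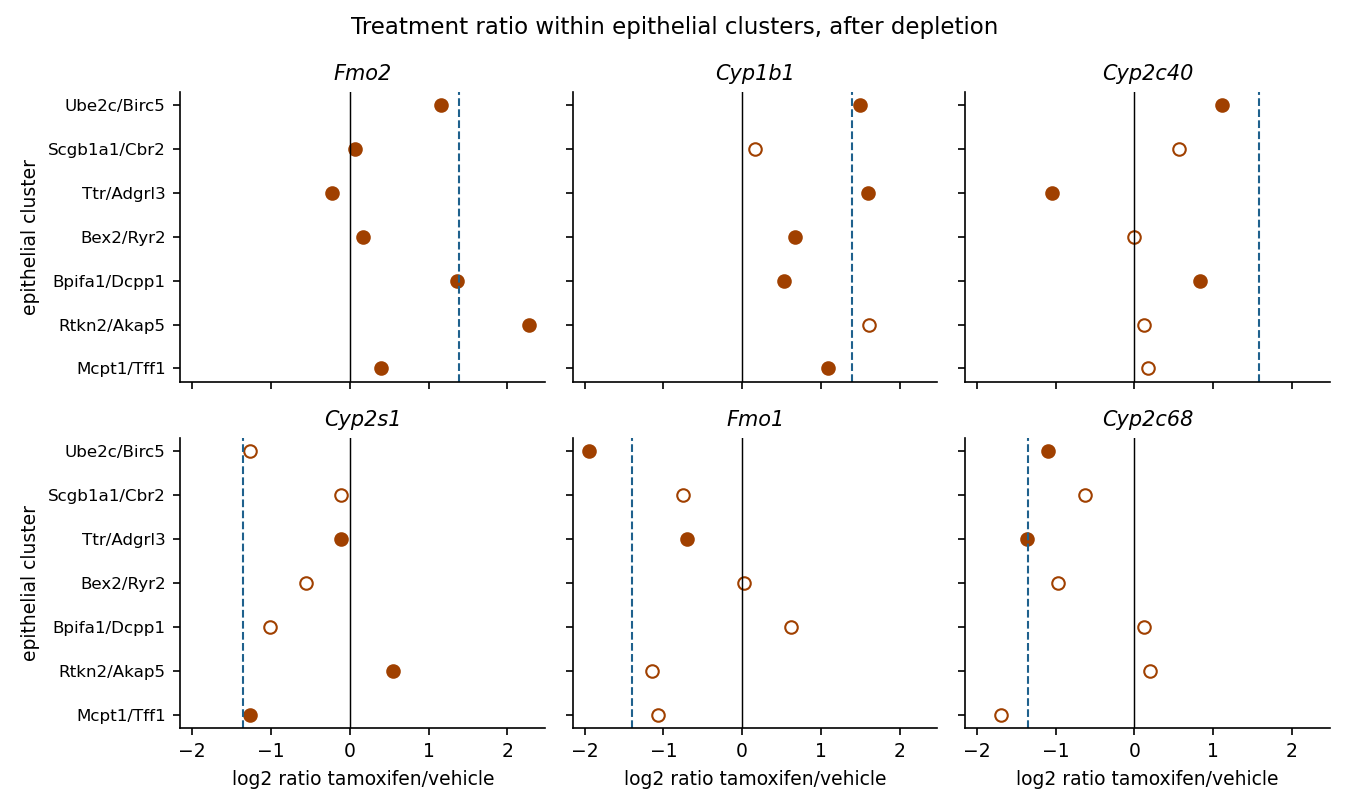
Log2 ratio of tamoxifen over vehicle (horizontal) within 7 epithelial clusters (vertical) after depletion for the 6 genes apart in epithelial-like cells as a whole. Filled points reach 10 CPM in either library, open points do not, and the dashed line is the ratio over all epithelial-like cells: Cyp1b1 is above 0 in all 7 clusters, while Cyp2c40 lies from -1.04 to 1.12.

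In the Ttr/Adgrl3 cluster after depletion 6 of 33 genes were apart, against 2.87% of all genes. Cyp1b1 was higher, and Aox3 (149 and 67.2 CPM), Cyp2c68 (40.7 and 15.2 CPM), Cyp2c40 (14.3 and 6.43 CPM), Aox4 (17.3 and 6.23 CPM) and Ugt2b34 (10.1 and 4.09 CPM) were lower with tamoxifen. In the Ube2c/Birc5 cluster 7 of 25 were apart (1.91% of all genes). Besides Fmo2 and Cyp1b1, Gsta3 (51.5 and 118 CPM), Gstp1 (31.9 and 67.1 CPM) and Cyp2c40 (10.8 and 24.5 CPM) were higher. Fmo1 (21.3 and 4.82 CPM) and Cyp2c68 (10.1 and 4.17 CPM) were lower. In cycling-like cells 5 of the 6 genes were apart in the same direction as in epithelial-like cells as a whole. The cycling-like cells are part of the cells in which the 6 genes were chosen, so this is no separate evidence.

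In the alveolar type 1-like Rtkn2/Akap5 cluster after depletion 5 of 25 genes were apart (1.93% of all genes), all higher with tamoxifen. They were Fmo2, Gstm1 (121 and 279 CPM), Aox3 (55.7 and 154 CPM), Gsta3 (26.7 and 70.9 CPM) and Fmo4 (6.12 and 14.8 CPM). In the Bpifa1/Dcpp1 cluster 4 of 26 were apart (5.52%): Fmo2, Aox1 (37.3 and 94.7 CPM) and Cyp39a1 (8.37 and 21.6 CPM) were higher and Gsto1 (224 and 42.1 CPM) lower. The vehicle library held 126 cells of that cluster. In Mcpt1/Tff1 2 of 24 genes were apart after depletion (2.16%) and 4 of 24 before it (3.74%), the latter all lower: Gstm1 (432 and 138 CPM), Aox3 (23.2 and 4.33 CPM), Cyp2s1 and Fmo1 (11.1 and 0.456 CPM). In Bex2/Ryr2 Aox4 was lower in both pairs, at 13.6 and 4.87 CPM before and 29.4 and 13.1 CPM after depletion (1 of 25 genes after, 1.03% of all; 2 of 27 before, 2.45%). In Scgb1a1/Cbr2 Cyp2f2 was higher after depletion (19.3 and 43.6 CPM; 1 of 19, 0.28%) and Cyp2b10 before it (18.8 and 43.2 CPM; 1 of 18, 0.382%).

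Across the 11 cell classes with at least 50 cells in both libraries before depletion, 39 of the 82 genes were highest in epithelial-like cells in both. A further 21 were highest in another class in both libraries, and 22 changed class between the libraries. These counts had no minimum level, so Sult2a3 counted as epithelial at 0.0327 and 0.0293 CPM. The share over all genes is not given here, and epithelial-like cells held the most UMIs of the 11 classes. Epithelial-like cells had the largest member sum (1710 and 1820 CPM for vehicle and tamoxifen), followed by fibroblast-like (1072 and 1093 CPM) and neutrophil-like cells (878 and 902 CPM). T cell-like cells had 234 and 309 CPM.

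**Figure D5:**
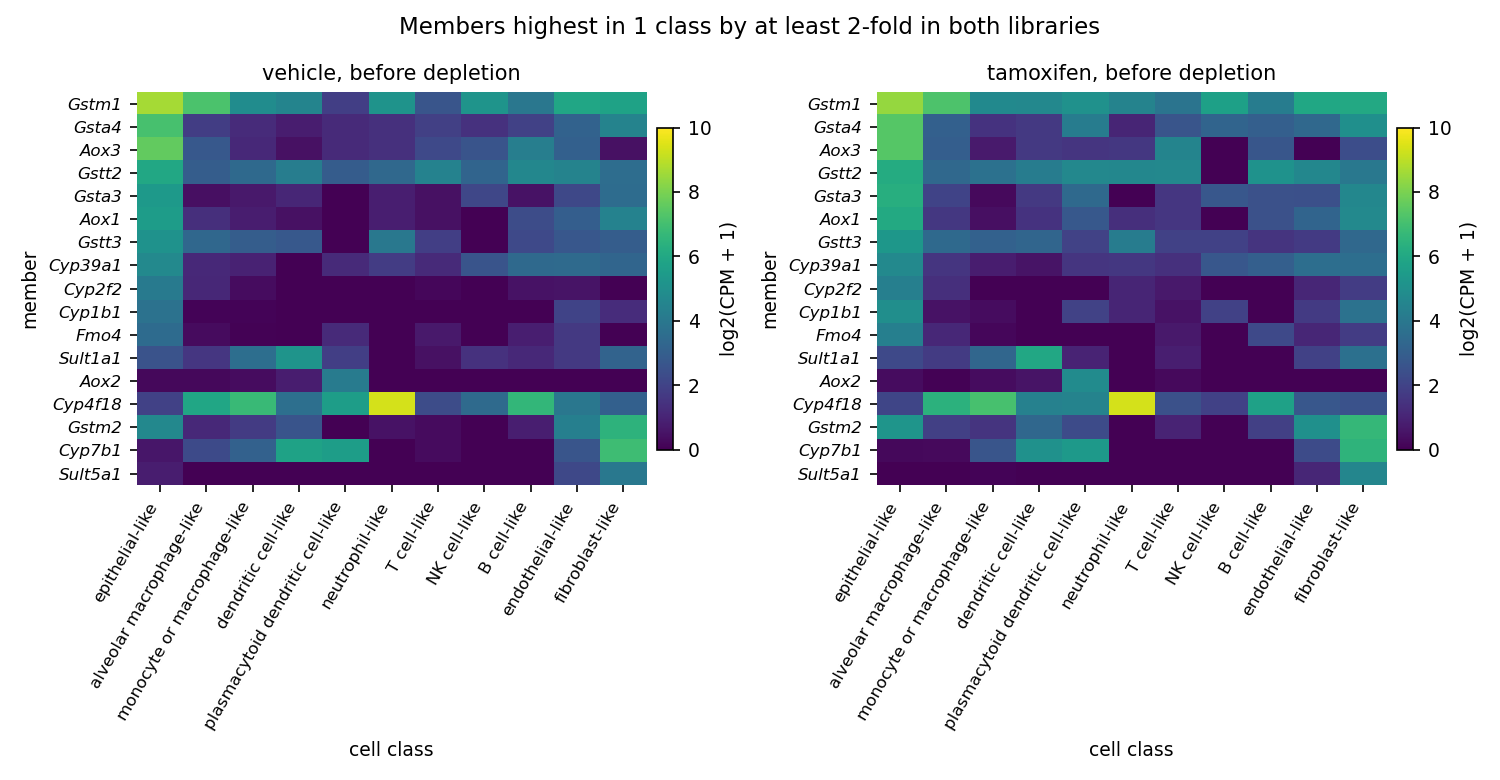
Log2(CPM + 1) of the 17 genes that are highest in 1 cell class by at least 2-fold, at 10 CPM or more, in both libraries before depletion (vertical axis), over 11 cell classes (horizontal axis), with vehicle on the left and tamoxifen on the right. The first 11 genes are highest in epithelial-like cells, and Cyp4f18 is highest in neutrophil-like cells in both panels.

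With a margin of 2-fold over the next class and 10 CPM, 17 genes were tied to 1 of the 11 classes. The share of all genes that pass this rule is not given here, so the count only describes the members. Epithelial-like cells had 11: Gstm1, Gsta4, Gsta3, Gstt2, Gstt3, Aox1, Aox3, Cyp39a1, Cyp2f2, Cyp1b1 and Fmo4. Smaller sets lay outside these classes. A ciliated-like set of 29 cells, pooled over the libraries, had Cyp2f2 at 785 CPM and Gstm1 at 746 CPM, above the epithelial-like levels. A pooled mast cell or basophil-like set of 20 cells had Cyp4f18 at 779 CPM. For Gsta4 the next class, fibroblast-like cells, had 20.9 and 30.4 CPM, and for Gstm1 alveolar macrophage-like cells had 145 and 146 CPM. Cyp4f18, which inactivates leukotriene B4 in neutrophils, gave 654 and 651 CPM in neutrophil-like cells and 108 and 135 CPM in monocyte or macrophage-like cells. In epithelial-like cells it gave 2.78 and 3.25 CPM before depletion and 0.0455 and 0.0769 CPM after it.

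Fibroblast-like cells held Cyp7b1, an oxysterol hydroxylase, at 117 and 89.5 CPM, Gstm2 at 86.2 and 99.6 CPM, and Sult5a1 at 15.2 and 23.3 CPM. Dendritic cell-like cells held Sult1a1 at 34.9 and 63.5 CPM, and plasmacytoid dendritic cell-like cells Aox2 at 16.8 and 27.1 CPM. Dendritic cell-like cells were also highest, by a smaller margin, for Cyp27a1, the sterol hydroxylase, at 27.4 and 36.7 CPM. The pair of monooxygenase genes that split by treatment was not particular to epithelium. Fmo2 gave 329 and 269 CPM in fibroblast-like cells, above the epithelial-like 69.3 and 159.7 CPM, and Fmo1 gave 28.9 and 54.8 CPM in endothelial-like cells.

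Between treatments in the other classes before depletion, 10 calls in 4 of 7 classes passed the rule. Each called gene reached the minimum of 10 CPM only in the library in which it was higher. In neutrophil-like cells 3 of 11 genes were apart (4.12% of all genes), all higher with tamoxifen: Gstt1 (9 and 25 UMIs), Gstt2 (23 and 45) and Cyp4f16 (11 and 21). In T cell-like cells 2 of 10 were apart (1.58%), both higher, Gstm1 (5.23 and 13.6 CPM) and Aox3 (3.57 and 21.5 CPM). In B cell-like cells 3 of 11 were apart (5.66%), with Gstt1 (10 and 13 UMIs) and Fmo2 (10 and 21 UMIs) higher and Aox3 (46 and 6 UMIs) lower. In endothelial-like cells 2 of 14 were apart (4.17%), with Cyp4b1 higher (6.90 and 37.7 CPM) and Cyp4f18 lower (14.7 and 5.54 CPM). None was apart of 11 genes in alveolar macrophage-like cells (1.07%), of 14 in monocyte or macrophage-like cells (0.652%) and of 15 in dendritic cell-like cells (3.26%). Aox3, Gstm1 and Fmo2 were at 163, 345 and 159.7 CPM in epithelial-like cells of the tamoxifen library; the part of free RNA or of mixed droplets in the lymphocyte values was not tested.

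Of 91 other genes of the pathway in lists of sensors, electron donors, other phase 1 enzymes, glutathione supply, cosubstrate supply, transporters and targets of Nfe2l2 and Ahr, 60 were considered in epithelial-like cells, 0 were higher and 1 was lower, near the shares of all genes (0.411% and 0.965%). The lower gene was Adh1, an alcohol and retinol dehydrogenase, at 13.8 and 14.5 CPM with vehicle, against 3.75 and 3.58 CPM with tamoxifen. The median log2 ratios over the lists were -0.02 and -0.03. Nr1i2, the pregnane X receptor that induces P450 genes in liver, was under the minimum level, with 31 and 170 UMIs with vehicle, against 4 and 26 UMIs with tamoxifen. Por, the electron donor of microsomal P450s, gave 155 and 123 CPM with vehicle, against 113 and 105 CPM with tamoxifen. Ahr, the aryl hydrocarbon receptor that induces Cyp1b1, gave 61.7 and 56.2 CPM with vehicle, against 74.9 and 70.1 CPM with tamoxifen. Nfe2l2, the regulator of antioxidant genes, gave 549 and 474 CPM with vehicle, against 499 and 485 CPM with tamoxifen. The Nfe2l2 target list had medians of 0.17 and 0.04, with none of its 9 considered genes apart. Of the 6 Ahr target genes only 2 were considered, too few to describe the list.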

How the data were processed

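Lung tumour cells of 4 libraries, 1 per group, were analysed. The authors deposited UMI counts per gene and cell, whole numbers without normalization; the file headers name Cell Ranger 7.0.1, and the submitters' processing notes name Cell Ranger 7.2.0 and mm10. The gene annotation used and how intronic or multi-gene reads were treated are not given in the sources used here. Vehicle is named in more than 1 way in the labels.

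Cells were kept from 200 detected genes and up to 20% mitochondrial UMIs. The doublet caller's own threshold marked 188, 1, 1 and 0 cells and was judged not to have worked, so cells with a score above 0.25 were removed. Cells were clustered with scanpy 1.11.5 (2000 variable genes without the members, 40 components, 15 neighbours, Leiden resolution 1; epithelial-like cells again with 30 components and resolution 0.5), and classes were named from markers. UMIs were summed per class and library and divided by the class total (CPM). Ratios are log2 of CPM plus a pseudocount of 1. Apart means 2-fold or more in 1 direction in both pairs, with 10 CPM in either library of each pair; other classes and clusters were compared within 1 pair. Folds in the text are raw CPM ratios with exact conditional binomial intervals, and levels carry Poisson and shares Clopper-Pearson intervals. Alternatives included edgeR 4.0.16 TMM factors. The size rule was tested on simulated data.

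Genes named are the 4 most abundant of each family, those apart between treatments, those tied to a class, up to 3 that mark each cluster, the genes at the threshold, and Hnf4a, Ahr, Nfe2l2 and Por; other genes, such as those called within clusters or other classes or lying in the Cyp2c array, were chosen after their values were seen. Members and lists were chosen with earlier results of these data known. Gene positions are from GENCODE (mouse release 21, GRCm38) and upstream sequences from RefSeq (GRCm38.p6).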

Additional observations from a re-analysis of the deposited data

Results flagged for a closer look

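After depletion, 2 genes were at least 2-fold apart between treatments in opposite directions in different epithelial clusters. Aox3 had a log2 ratio of 1.45 in the Rtkn2/Akap5 cluster and -1.14 in the Ttr/Adgrl3 cluster. Cyp2c40 had a log2 ratio of -1.04 in the Ttr/Adgrl3 cluster and 1.12 in the Ube2c/Birc5 cluster. With 1 library per group the difference between clusters was not tested, and the tamoxifen library held 134 cells of the Ttr/Adgrl3 cluster.

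The genes were also present in cells that entered no comparison. An unnamed cluster led by Clu and Msln (240 cells) had a summed level of 1124.9 CPM over the 82 genes, with Gstm1 at 313 CPM. Another, led by Npy and Hmga2 (288 cells), had 645.8 CPM, with Gsto1 at 184 CPM.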

How the results depend on the processing

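No paired analysis was possible because each group holds 1 library. The 6 genes apart in both pairs (3 higher, 3 lower) were all kept under TMM, median-of-ratios scaling, a pseudocount of 0.1, 1000 genes per cell, doublets kept and, added after seeing the data, without the cluster with immune transcripts. Counts moved under other settings: with a pseudocount of 5, 2 higher and 1 lower (Cyp1b1, Cyp2s1 and Cyp2c68 lost); with a gate on each cell, 3 and 1 (Cyp2s1 and Cyp2c68 lost); with no CPM minimum, 3 and 6; at 1.5-fold, 5 and 3; at 4-fold, 0 and 0. With each cell's CPM averaged, Cyp2c68 was lost; without the Lyz1-led cluster, Cyp1b1 was lost and Cyp2c67 gained.

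Without the Bpifa1 and Ttr clusters (added after seeing the data) and with equal weight for each epithelial cluster the counts were 0 and 0. Of 144 alternative values of the 12 ratios of the 6 genes, 2 changed sign, both with equal weight before depletion: Fmo2 (-0.19) and Cyp2c40 (-0.55). Among the 68 ratios of named genes not apart, 32 changed sign under some setting, Cyp2b10 before depletion from -0.46 to 1.16. Genes marking an epithelial cluster numbered 21, and 28 at resolution 1, 23 with the members kept in the clustering and 6 at 4-fold. With no CPM minimum, 3 list genes instead of 1 were apart, 52 calls instead of 10 stood in the other classes, and after against before depletion 1 gene instead of 0 was apart in vehicle and 1 instead of 0 in tamoxifen. Genes highest in epithelial-like cells numbered 39 to 40. In the other classes calls rest on as few as 6 UMIs in a library.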

Other observations

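A ciliated-like set of 29 cells, pooled over the libraries, had Cyp2f2 at 785 CPM (359 UMIs; 95% Poisson interval 706 to 871), Gstm1 at 746 CPM, Cyp2s1 at 649 CPM, Cyp4b1 at 420 CPM (192 UMIs; 363 to 484), Gsto1 at 407 CPM and Cyp2b10 at 319 CPM. A mast cell or basophil-like set of 20 cells had Cyp11a1, the enzyme that cleaves the cholesterol side chain at the start of steroid synthesis, at 1558 CPM (146 UMIs; 1315 to 1832) and Cyp4f18 at 779 CPM. Both sets were too small for any comparison between libraries.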
